A study of Homo sapiens with 2 samples.

Results

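Heat shock proteins and their DNAJ partners were examined in SK-LMS-1 cells and in SK-UT-1 cells, 2 human lines from leiomyosarcoma, by total RNA sequencing of cells given the solvent DMSO. The members were chosen by gene symbol alone. They were the numbered HSPA (HSP70), HSPB (small heat shock protein), DNAJA, DNAJB and DNAJC genes, together with HSPD1, HSPE1, HSPH1, HSP90AA1, HSP90AB1 and HSP90B1. This gave 72 members among the 26485 genes of the deposited count table. Leiomyosarcomas are tumours of smooth muscle origin, SK-LMS-1 coming from the vulva and SK-UT-1 from the uterus. Each line is an established culture and stood for 1 library, so no difference below has a replicate check, no test between the lines was made and no p-value is given. The series concerns an inhibitor of the histone methyltransferase SUV39H2 combined with inhibition of PARP, a family of DNA repair enzymes, and the comparison made here is between the lines with solvent alone.

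Molecular chaperones bind unfolded protein and help it to fold. HSP70 proteins clamp exposed peptide stretches in a cycle of ATP hydrolysis, J-domain proteins of the DNAJ classes deliver the substrate and trigger the hydrolysis, and nucleotide exchange factors open the clamp again. HSP90 takes over partly folded clients such as kinases and steroid receptors, HSPD1 and HSPE1 form the mitochondrial chaperonin, and small heat shock proteins hold unfolded protein without ATP. Heat shock factor 1 (HSF1) induces many of these genes on stress by binding heat shock elements, inverted repeats of the letters GAA. Smooth muscle expresses small heat shock proteins such as HSPB6 at a high level.

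Library totals were 6906280 counts (SK-LMS-1) and 7635850 counts (SK-UT-1). Of 10 smooth muscle markers, 9 were measured, which means at least 1 CPM (the usual depth-scaled count, corrected with edgeR's trimmed mean, TMM) in the higher library. Of these 5 were past 2-fold towards SK-LMS-1 and 3 towards SK-UT-1, and the list summed to 1468 CPM in SK-LMS-1 against 529 in SK-UT-1. MYH11 stayed below 1 CPM in both libraries. DES was at 1 count in SK-LMS-1 against 26 in SK-UT-1. Of 5 epithelial markers 2 were measured, KRT19 at 9.92 CPM in SK-LMS-1 against 19.3 in SK-UT-1 and EPCAM at 0.153 and 1.12 CPM, while KRT5 and KRT14 were at 0. The epithelial list summed to 10.1 and 20.9 CPM. Of 3 endothelial markers PECAM1 was measured, at 8 counts in SK-LMS-1 against 0 in SK-UT-1, while VWF was at 0 in both. Of 4 blood cell markers 0 were measured, PTPRC and LYZ were at 0 in both libraries, and CD3E had 2 counts in SK-LMS-1. The part of these markers in the results below was not tested.

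The promoters of 3 stress-inducible HSP70 genes are shown first because these genes went in opposite directions between the lines, as described below. The sequences come from RefSeq (GRCh38.p14) and lie within the 250 bases before the transcript start, all on the plus strand and read 5′ to 3′. They stop where an exon of GENCODE 29 or of the deposited table begins. Matches to the letters GAANNTTC or TTCNNGAA are in capitals; both strings read the same on either strand, and matches may overlap. HSPA1A (chr6:31815293-31815463) and HSPA1B (chr6:31827488-31827734) are near-identical copies, and HSPA6 (chr1:161524290-161524539) is a strictly inducible gene.
HSPA1A: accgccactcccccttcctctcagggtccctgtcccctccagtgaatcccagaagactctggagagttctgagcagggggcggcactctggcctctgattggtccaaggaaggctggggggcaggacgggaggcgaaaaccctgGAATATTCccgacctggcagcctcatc
HSPA1B: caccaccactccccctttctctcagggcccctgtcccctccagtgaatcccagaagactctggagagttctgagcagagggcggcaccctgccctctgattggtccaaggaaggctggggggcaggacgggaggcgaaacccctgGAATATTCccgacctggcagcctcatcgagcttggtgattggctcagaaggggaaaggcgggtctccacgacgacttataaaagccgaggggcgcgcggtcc
HSPA6: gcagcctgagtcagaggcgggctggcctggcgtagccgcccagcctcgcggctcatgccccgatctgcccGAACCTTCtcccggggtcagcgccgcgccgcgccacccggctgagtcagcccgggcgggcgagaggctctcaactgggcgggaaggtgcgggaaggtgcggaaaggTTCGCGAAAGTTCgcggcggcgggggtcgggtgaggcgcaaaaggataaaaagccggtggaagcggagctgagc

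HSPA1A and HSPA1B each held 1 match in the stretch shown, and their full windows of 250 bases shared 235 aligned bases, with 14 mismatches and 2 gap positions. HSPA6 held 3 matches, of which 2 overlap and make a run of 3 units. Such a run is GAANNTTC followed by NNGAA, or TTCNNGAA followed by NNTTC, each the reverse complement of the other. Of the 72 members, 63 matched the promoter table by symbol. Among them 20 (31.7%) had a match to the shorter letters before at least 1 of their starts and 6 (9.52%) had a run of 3 units. Over all 27305 genes of the promoter table these shares were 14% (3813 genes) and 0.557% (152 genes). The 6 members with a run of 3 units were HSP90AA1, HSP90AB1, HSPA6, HSPA8, HSPD1 and DNAJB6. A match describes these letters and is not evidence of binding.

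Most measured members, 45 of 62, lay within 2-fold between the lines. Those past 4-fold were low as counted, at most 25.0 CPM (DNAJC6) in their higher library. They comprised HSPA1A, HSPA1B, HSPB6, HSPB8, DNAJC6, DNAJC15, DNAJC22 and DNAJA4. The 72 genes together held 94335 counts in SK-LMS-1, or 1.37% of that library (exact 95% interval 1.36 to 1.38). In SK-UT-1 they held 132283 counts, or 1.73% (1.72 to 1.74). The TMM-scaled sum was 1.14-fold higher (1.13 to 1.15) in SK-UT-1. The range after a fold is its exact 95% interval and covers counting error only. Without HSP90AA1 the TMM-scaled sum was 11654 CPM in SK-LMS-1 against 11488 in SK-UT-1. With TMM, the difference in the sum towards SK-UT-1 thus rested on that gene. With TMM scaling the remaining 71 genes stood at a log2 ratio (SK-LMS-1 over SK-UT-1) of 0.02. Scaled by library totals they stood at -0.13, beside -0.34 for all 72 genes, so there part of the difference remained.

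Of the 72 members, 62 were measured and 10 were not. Among the measured ones 11 were past 2-fold towards SK-LMS-1, against 21.9% of all 14324 measured genes, and 6 were past 2-fold towards SK-UT-1, against 18.3%. Another 45 lay within 2-fold. At 4-fold the counts were 7 in SK-LMS-1 (background 11.4%) and 1 in SK-UT-1 (background 7.3%). In either direction 27.4% of the measured members passed 2-fold, beside 40.2% of all measured genes. With a minimum of 20 CPM, set after the values were known, 4 of 43 members passed 2-fold in SK-LMS-1 (background 18.3%) and 3 in SK-UT-1 (background 11.6%). That is 16.3% of these members in either direction, beside 29.9% of 8445 genes. The interval lay above equal levels in SK-LMS-1 for 26 members (background 37.9%), in SK-UT-1 for 22 (background 36.3%), and included equality for 14. The median log2 ratio of the measured members was -0.0012, beside 0.0088 for all measured genes. Scaling by library totals moved all measured genes by a median of -0.15 and upper quartile scaling by -0.13. Directions are given relative to TMM, and of the measured members DNAJC8, DNAJC16 and HSP90AB1 changed direction with the scaling.

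**Figure D1:**
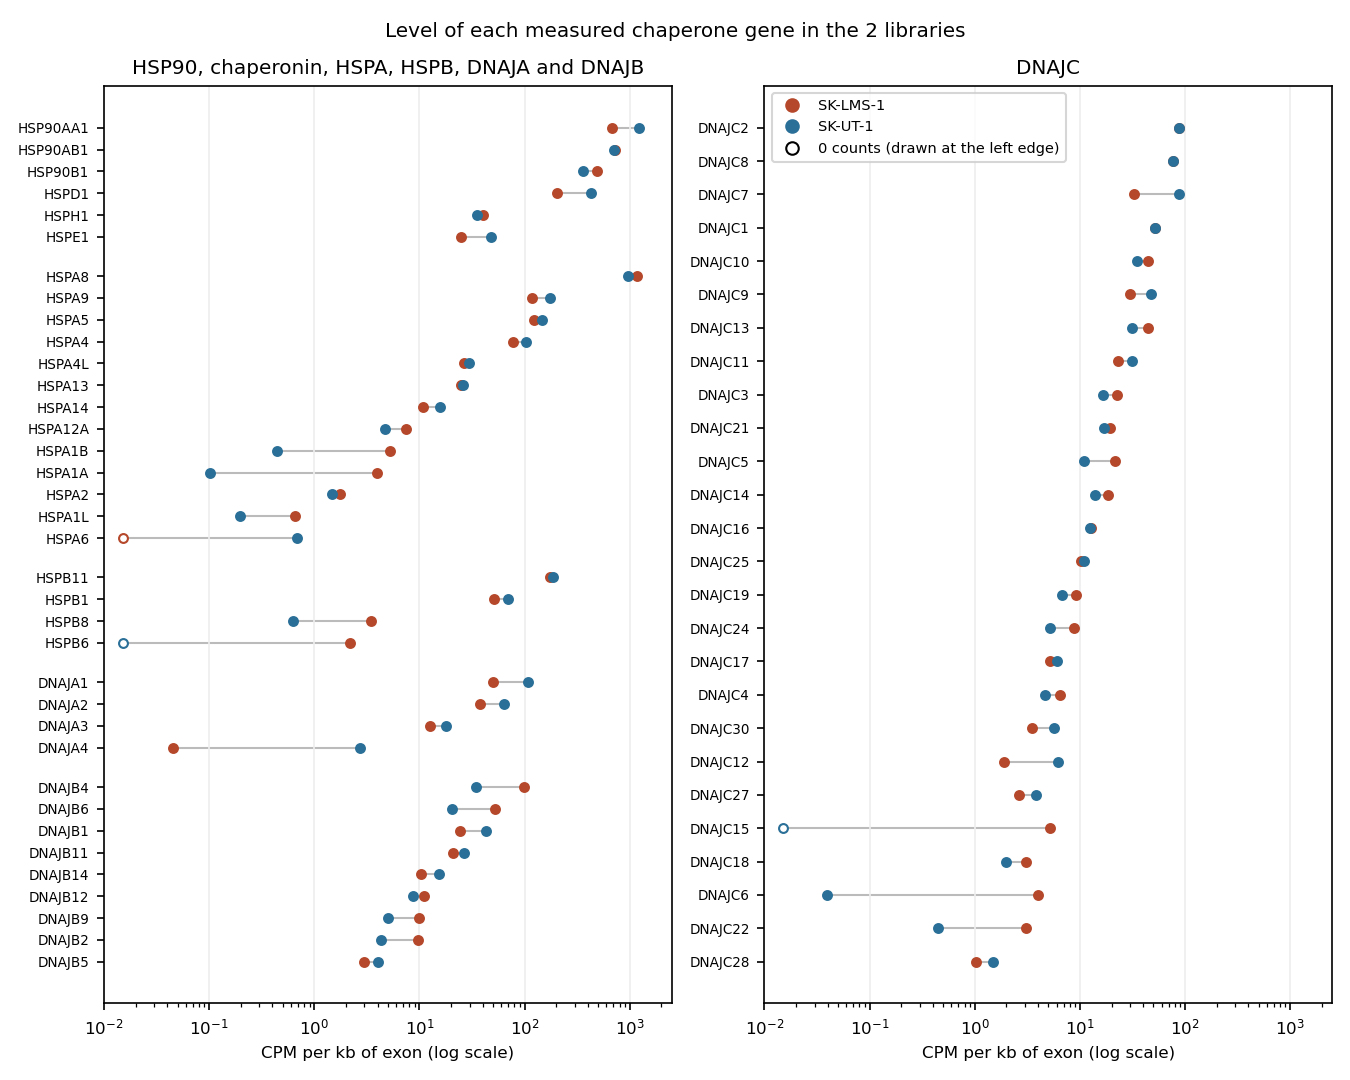
Level of each of the 62 measured members as CPM per kb of exon on a log axis, with 1 point for SK-LMS-1 (red) and 1 for SK-UT-1 (blue) joined by a line; open points had 0 counts and are drawn at the left edge. HSPA8, HSP90AA1 and HSP90AB1 lie at the right end in both libraries, and the long lines belong to low members such as HSPA1A, DNAJA4, DNAJC15 and DNAJC6.

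Levels of different genes were compared as CPM per kb of exon length. The same 3 genes led both libraries. HSPA8, the constitutive cytosolic HSP70, ranked first in SK-LMS-1 at 1175 CPM per kb and second in SK-UT-1 at 953. HSP90AA1 was the third at 673 in SK-LMS-1 and the first at 1215 in SK-UT-1. HSP90AB1, the constitutive HSP90, was the second at 724 and the third at 715. HSP90B1 and HSPD1 followed, and HSPB11 ranked sixth in both libraries at 176 and 187 CPM per kb. HSPB11, also called IFT25, is a protein of intraflagellar transport that carries a small heat shock protein name. HSP90AA1, HSPA8, HSP90AB1, HSP90B1, HSPD1, HSPA9 and HSPA5 together held 73.1% (72.8 to 73.4) of the members' counts in SK-LMS-1, against 76.8% (76.5 to 77.0) in SK-UT-1. Levels of HSPE1, HSPA8 and HSPD1 are uncertain, since GENCODE 29 lists 26, 17 and 17 pseudogenes named for them. The recorded counting gave no option for reads that align to several places. Only pseudogenes named as a member's symbol, P and a number were counted. Those named otherwise would be missed, so the absence of HSP90AA1, HSP90AB1 and HSP90B1 here does not make their levels certain.

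**Figure D2:**
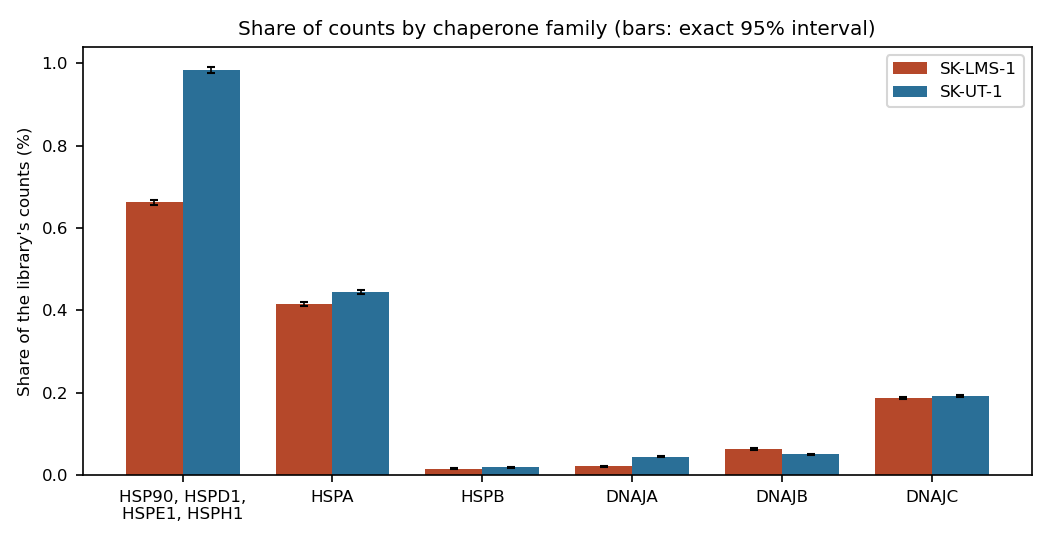
Share of each library's counts taken by each chaperone family, in percent, with exact 95% intervals for counting error and 1 library per bar. The HSP90, HSPD1, HSPE1 and HSPH1 group took 0.663% in SK-LMS-1, against 0.983% in SK-UT-1, the widest gap among the 6 families in percentage points.

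The proportion of the 2 cytosolic HSP90 genes differed between the libraries. HSP90AA1 (hg38 chromosome 14, 102080738 to 102139749, minus strand) had 17975 counts in SK-LMS-1 against 39827 in SK-UT-1, or 2743 and 4948 CPM. It was 1.80-fold higher (1.77 to 1.84) in SK-UT-1, within the 2-fold limit with TMM scaling and past it with library totals. HSP90AB1 (chromosome 6, 44246166 to 44253888, plus strand) stood at 2095 and 2070 CPM, 1.01-fold apart (0.989 to 1.04). Counts of HSP90AA1 over those of HSP90AB1 were 1.31 (1.28 to 1.34) in SK-LMS-1, against 2.39 (2.35 to 2.43) in SK-UT-1, a ratio taken within each library that no scaling touches. HSP90AA1 made up 19.1% (18.8 to 19.3) of the members' counts in SK-LMS-1, against 30.1% (29.9 to 30.4) in SK-UT-1. HSP90B1, the HSP90 of the endoplasmic reticulum (ER), went the other way at 1397 and 1027 CPM, 1.36-fold higher (1.32 to 1.40) in SK-LMS-1.

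Of 9 mitochondrial members, 6 had an interval above equal levels in SK-UT-1 and 2 in SK-LMS-1, where 36.3% and 37.9% of all measured genes did. HSPD1 (chromosome 2, 197486584 to 197500274, minus strand), the ring subunit of the chaperonin, stood at 498 CPM in SK-LMS-1 against 1036 in SK-UT-1, 2.08-fold higher (1.996 to 2.17) in SK-UT-1. HSPE1 (chromosome 2, 197499997 to 197503463, plus strand), its lid, lies head to head with HSPD1, with 104 bases between their RefSeq starts, and stood at 23.8 and 45.2 CPM, 1.90-fold higher (1.57 to 2.31) in SK-UT-1. Its value is uncertain because 63.8% of its exon bases are also exons of the readthrough gene HSPE1-MOB4. HSPA9, the mitochondrial HSP70, was 1.46-fold higher (1.40 to 1.53) in SK-UT-1 at 416 and 608 CPM, and its J-protein partner DNAJA3 1.41-fold (1.20 to 1.67). DNAJC30, a mitochondrial J protein linked to respiratory complex I, was 1.61-fold higher (1.17 to 2.25) in SK-UT-1, and DNAJC11, a protein of the cristae-organizing machinery, 1.35-fold (1.21 to 1.51).

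DNAJC15 was the exception of largest size among the 9 genes of the mitochondrial list. It encodes a J protein of the protein import motor and lies on chromosome 13 (43023226 to 43109170, plus strand). It had 94 counts (14.3 CPM) in SK-LMS-1, against 0 in SK-UT-1. With the 0 raised to a floor of 3 counts per library, this is 38.5-fold higher in SK-LMS-1. That floor equals 0.458 CPM in SK-LMS-1 against 0.373 in SK-UT-1. The lower 95% limit was 30.7-fold. DNAJC19, its relative in the same motor, was measured in both lines at 15.1 and 11.1 CPM, 1.37-fold higher (1.02 to 1.84) in SK-LMS-1. DNAJC4 stood at 8.85 and 6.46 CPM with an interval that included equality. In all, 1 of the 9 genes was past 2-fold towards SK-LMS-1 (background 21.9%) and 1 towards SK-UT-1 (background 18.3%). The other 7 lay between those limits, and the median log2 ratio of the 9 genes was -0.50.

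All 9 genes of the ER list lay within 2-fold, where 40.2% of all measured genes did not. All 9 were above 20 CPM in their higher library, and of all genes at 20 CPM or more 29.9% were past 2-fold. The median log2 ratio of the 9 genes was -0.01. The intervals of 4 lay above equal levels in SK-LMS-1, those of 2 in SK-UT-1, and 3 included equality. HSPA5, the ER HSP70 also called BiP, stood at 487 CPM in SK-LMS-1 against 582 in SK-UT-1, 1.19-fold higher (1.14 to 1.25) in SK-UT-1. Counts of HSP90B1 over HSPA5 were 2.87 (2.75 to 2.99) in SK-LMS-1, against 1.77 (1.70 to 1.83) in SK-UT-1. Of the J proteins in the ER, DNAJB9, which attends to degradation of misfolded protein, had the largest ratio at 25.0 and 12.8 CPM, 1.96-fold higher (1.52 to 2.53) in SK-LMS-1, and it passed 2-fold with the deeper library thinned. DNAJC3, an inhibitor of the kinase PERK and a BiP cofactor, was 1.35-fold higher (1.22 to 1.50) in SK-LMS-1 and the disulfide reductase DNAJC10 1.27-fold (1.19 to 1.35). DNAJB11 was 1.26-fold higher (1.06 to 1.49) in SK-UT-1. For DNAJC1, DNAJC25 and HSPA13 the intervals included equality, at 1.01-fold (0.912 to 1.11), 1.08-fold (0.876 to 1.32) and 1.05-fold (0.944 to 1.16).

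Of 13 measured HSP70 genes, 3 (23.1%) were past 2-fold towards SK-LMS-1 (background 21.9%) and 1 (7.69%) towards SK-UT-1 (background 18.3%). The other 9 lay between those limits, and the median log2 ratio of the 13 genes was -0.07. The 3 towards SK-LMS-1 were HSPA1A, HSPA1B and HSPA1L, which are neighbours on chromosome 6. HSPA8 had 18937 counts in SK-LMS-1 against 18876 in SK-UT-1, or 2890 and 2345 CPM, 1.23-fold higher (1.21 to 1.26) in SK-LMS-1. HSPA4, an HSP110 protein that acts as nucleotide exchange factor, was 1.32-fold higher (1.24 to 1.40) in SK-UT-1. Its relatives HSPH1 and HSPA4L stood at 1.14-fold higher (1.06 to 1.22) in SK-LMS-1 and 1.10-fold higher (0.982 to 1.22) in SK-UT-1, the second interval including equality. HSPA14, which works on the ribosome with DNAJC2, was 1.46-fold higher (1.295 to 1.64) in SK-UT-1, and DNAJC2 itself was level at 192 and 193 CPM. HSPA12A, a distant family member, was 1.60-fold higher (1.33 to 1.91) in SK-LMS-1. HSPA2, known from the testis, was low at 4.88 and 4.10 CPM. Summed over 15 genes, HSPA counts were 0.416% of SK-LMS-1 and 0.444% of SK-UT-1, while the TMM-scaled sum was 1.04-fold higher (1.02 to 1.06) in SK-LMS-1, so the direction of the sum changes with the scaling.

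The stress-inducible HSP70 genes had low counts in both lines and differed by large ratios. HSPA1A (chromosome 6, 31815514 to 31817942, plus strand, a single exon) had 63 counts in SK-LMS-1 against 2 in SK-UT-1, 38.7-fold higher (10.3 to 326) in SK-LMS-1. HSPA1B (chromosome 6, 31827735 to 31830254, plus strand, a single exon) had 87 and 9 counts, 11.9-fold higher (5.98 to 26.8) in SK-LMS-1. Together they reached 22.9 CPM in SK-LMS-1 against 1.37 in SK-UT-1, 16.75-fold higher (9.10 to 34.3). HSPA1L, their neighbour on the opposite strand, whose RefSeq start lies 259 bases from that of HSPA1A, had 11 and 4 counts, 3.38-fold higher in SK-LMS-1, with an interval that reached down to 1.0009. HSPA6 (chromosome 1, 161524540 to 161526897, plus strand) went the other way, with 0 counts in SK-LMS-1 against 13 in SK-UT-1. With the 0 raised to the floor this is 3.53-fold higher in SK-UT-1, and the lower 95% limit was 2.48. The genes whose promoters are printed above thus fell on both sides, HSPA1A and HSPA1B towards SK-LMS-1 and HSPA6 towards SK-UT-1.

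HSPA1A and HSPA1B are uncertain in level. Their GENCODE 29 transcripts of 2483 and 2521 bases align with 2304 identical bases, 92.8% of the shorter. They hold an identical run of 1715 bases, so fragments inside that run cannot be placed. If such fragments were left uncounted, the levels given for both genes are too low in both libraries. The 2 genes and HSPA1L are also listed on 5 sequences each, chromosome 6 and 4 alternate versions of its histocompatibility region. Of 43 other measured genes listed on those sequences, 6 were past 2-fold towards SK-LMS-1, 3 towards SK-UT-1 and 34 between those limits; their median log2 ratio was 0.28. Among the 9 of them that start within 100 kb of HSPA1A, 0 were past 2-fold towards SK-LMS-1, 1 towards SK-UT-1 and 8 between those limits; their median was -0.60.

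Of the 14 matched genes of the stress-inducible list, 4 were past 2-fold towards SK-LMS-1 (HSPA1A, HSPA1B, HSPB8 and DNAJB4). Towards SK-UT-1, 3 were past it (HSPA6, HSPD1 and DNAJA1). The other 7 lay within 2-fold, namely HSPA8, HSPA4L, HSP90AA1, HSPE1, HSPH1, HSPB1 and DNAJB1. The list thus takes in HSPA8, which is named above as constitutive. Its median log2 ratio over the 14 genes was -0.27. The shares over all measured genes were 21.9% and 18.3%, and those of the list were 28.6% and 21.4%. DNAJB1, the main J-protein partner of inducible HSP70, stood at 65.3 CPM in SK-LMS-1 against 116 in SK-UT-1, 1.77-fold higher (1.58 to 1.99) in SK-UT-1. Of the 20 members with heat shock element letters before a start, 8 were past 2-fold towards SK-LMS-1 and 4 towards SK-UT-1. Another 6 lay within 2-fold and 2 were not measured. In either direction 40.2% of all measured genes and 27.4% of the measured members passed 2-fold. The matches are not all separate. The windows of HSPA1L and HSPA1A overlap and hold the same match, and HSPA1B is a near copy of HSPA1A. Of the 6 with a run of 3 units, 1 (DNAJB6) was past 2-fold towards SK-LMS-1, 2 (HSPA6 and HSPD1) in SK-UT-1, and 3 (HSPA8, HSP90AB1 and HSP90AA1) lay within 2-fold.

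**Figure D3:**
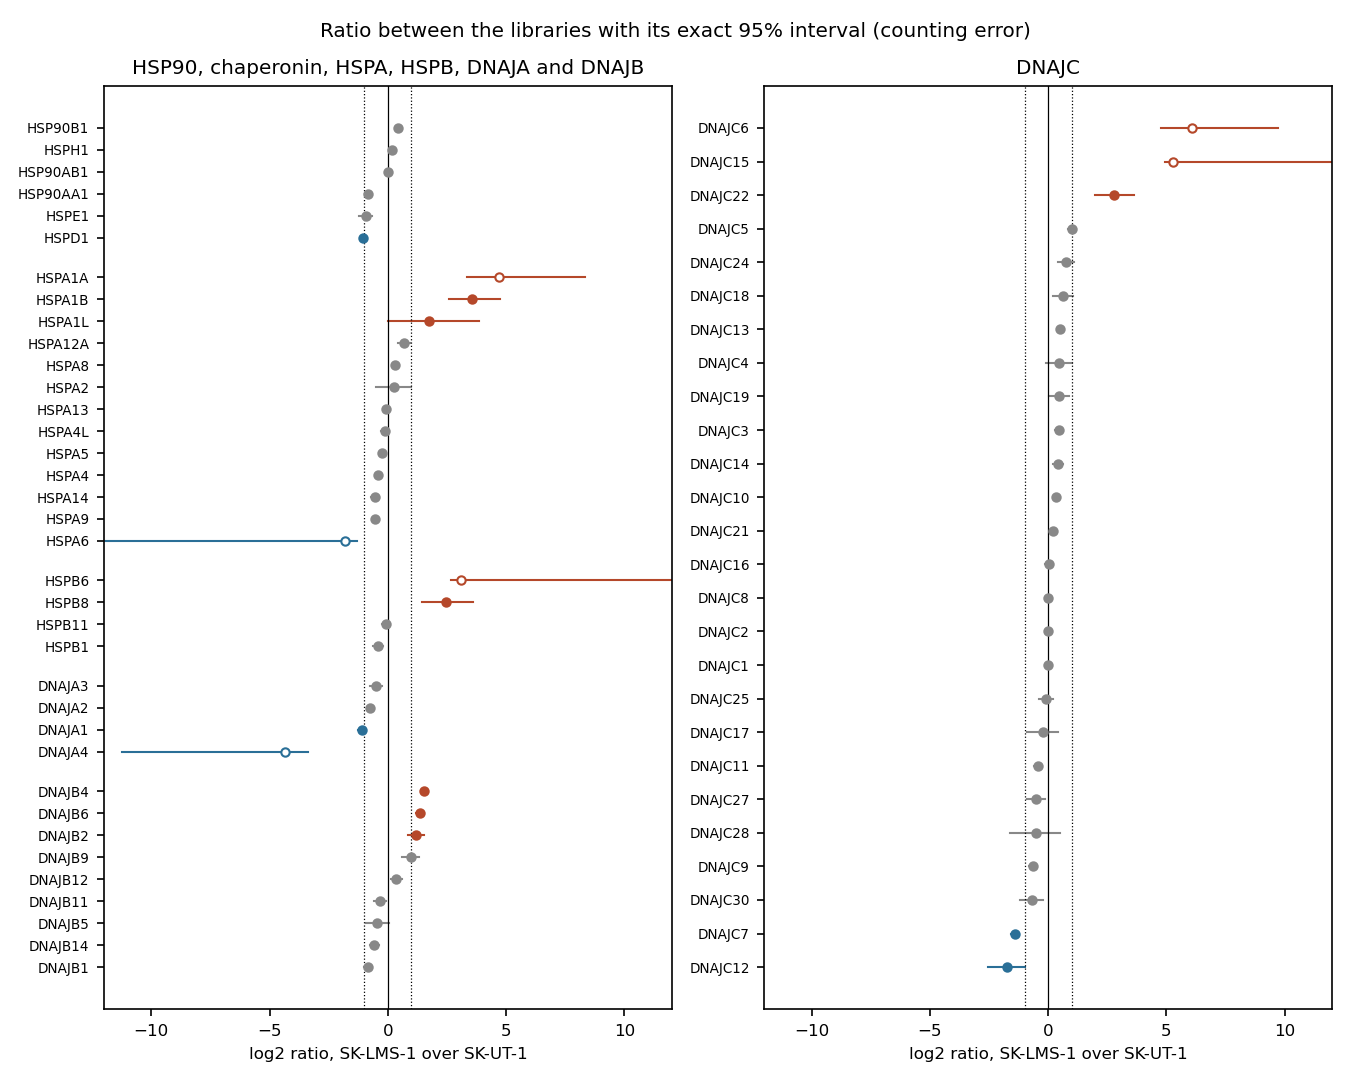
Log2 ratio of SK-LMS-1 over SK-UT-1 for each measured member, with its exact 95% interval for counting error and dotted lines at 2-fold; red and blue mark members past 2-fold towards SK-LMS-1 and towards SK-UT-1. Open points had fewer than 3 counts in 1 library and are placed at the 3-count floor, while their intervals use the counts as deposited and run off the axis where 1 library had 0 counts; 45 grey points lie between the dotted lines.

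Of the small heat shock protein genes, only those with an HSPB symbol were members. Of these 8 HSPB genes 4 were measured. HSPB5 had no row under that symbol and was not looked up under another name, so it is missing here. HSPB11 stood at 106 and 112 CPM, 1.06-fold apart (0.961 to 1.17), and HSPB1, the HSP27 protein that also stabilizes actin, at 46.2 CPM in SK-LMS-1 against 61.8 in SK-UT-1, 1.34-fold higher (1.16 to 1.55) in SK-UT-1. HSPB8, which works with BAG3 in selective autophagy, had 45 counts in SK-LMS-1 against 10 in SK-UT-1, 5.53-fold higher (2.75 to 12.3) in SK-LMS-1. HSPB6, the HSP20 protein known from smooth muscle relaxation, had 21 counts in SK-LMS-1 against 0 in SK-UT-1. With the 0 raised to the floor this is 8.60-fold higher in SK-LMS-1, and the lower 95% limit was 6.40. HSPB7 had 2 counts in SK-LMS-1 against 0 in SK-UT-1. HSPB2, HSPB3 and HSPB9 were at 0 in both libraries, which allows up to 3 counts each. Both HSPB8 and HSPB6 were below 7 CPM in their higher library. The smooth muscle markers did not go 1 way: CALD1 (749 CPM in SK-LMS-1 against 343 in SK-UT-1) and MYLK (414 against 9.94) were higher in the same line as HSPB8 and HSPB6, while ACTA2 (10.5 against 54.0) and DES were higher in the other. Their part in these ratios was not tested.

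All 4 DNAJA genes, the class built like bacterial DnaJ, had ratios towards SK-UT-1, and their intervals all left out equality. Over all measured genes, 36.3% had an interval above equal levels in SK-UT-1. Past 2-fold towards SK-UT-1 were 2 of the 4, DNAJA1 and DNAJA4 (background 18.3%). DNAJA1, a farnesylated partner of HSPA8, stood at 76.6 CPM in SK-LMS-1 against 165.5 in SK-UT-1, 2.16-fold higher (1.95 to 2.40) in SK-UT-1. DNAJA2, another cytosolic partner, was 1.71-fold higher (1.56 to 1.86) in SK-UT-1 at 114 and 195 CPM. DNAJA4 (chromosome 15, 78264145 to 78282196, plus strand) had 1 count in SK-LMS-1 against 74 in SK-UT-1, 60.2-fold higher (10.5 to 2411) in SK-UT-1. With that single count raised to the floor of 3, as in the plot of ratios, its log2 ratio was -4.33, and likewise it was 4.69 for HSPA1A and 6.07 for DNAJC6, which had 2 counts each in SK-UT-1. The sum over the class was 1.85-fold higher (1.74 to 1.97) in SK-UT-1.

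Of 9 measured DNAJB genes, 5 had an interval above equal levels in SK-LMS-1 and 3 had one in SK-UT-1, while 1 included equality (backgrounds 37.9% and 36.3%). DNAJB4 (chromosome 1, 78004952 to 78017311, plus strand), a cytosolic J protein, had 1449 counts in SK-LMS-1 against 614 in SK-UT-1, 2.90-fold higher (2.64 to 3.19) in SK-LMS-1. DNAJB6 (chromosome 7, 157337016 to 157417439, plus strand), which holds back aggregation of polyglutamine proteins and is mutated in a limb-girdle muscular dystrophy, was 2.57-fold higher (2.32 to 2.86) in SK-LMS-1 at 166 and 64.6 CPM. DNAJB2, known from neurons and from sorting clients to the proteasome, was 2.26-fold higher (1.78 to 2.89) in SK-LMS-1 at 30.4 and 13.4 CPM. These 3 were past 2-fold towards SK-LMS-1 (background 21.9%), 0 were past it towards SK-UT-1 (background 18.3%) and 6 lay between those limits; their median log2 ratio was 0.35. In the level order, DNAJB4 and DNAJB6 led the class in SK-LMS-1 at 98.9 and 52.1 CPM per kb, while DNAJB1 led it in SK-UT-1 at 43.1. The ER membrane proteins DNAJB12 and DNAJB14 split, 1.27-fold higher (1.08 to 1.49) in SK-LMS-1 and 1.48-fold higher (1.31 to 1.67) in SK-UT-1. DNAJB13 (0 and 3 counts) and DNAJB7 (1 and 0) were not measured, and DNAJB3 and DNAJB8, like HSPA7, were at 0 in both libraries. HSPA7 is a near copy of HSPA6, so reads of these genes may be confused. HSPA12B had 0 and 5 counts.

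The 26 DNAJC genes, a mixed class whose members share little beyond the J domain, were all measured. Of these, 3 (11.5%) were past 2-fold towards SK-LMS-1 (background 21.9%) and 2 (7.69%) towards SK-UT-1 (background 18.3%). The other 21 lay between those limits, and the median log2 ratio of the 26 genes was 0.11. Their TMM-scaled sum was 1.08-fold higher (1.06 to 1.11) in SK-LMS-1 but the sign of the sum turns with library totals (log2 ratio -0.04) and the upper quartile (-0.02). DNAJC2, DNAJC8 and DNAJC1 were nearly equal between the lines at 1.002-fold (0.930 to 1.08), 1.0004-fold (0.914 to 1.09) and 1.01-fold, DNAJC8 being a protein of the splicing machinery.

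The DNAJC genes past 2-fold had varied roles. DNAJC6 (chromosome 1, 65264694 to 65415869, plus strand) encodes auxilin, the neuronal protein that recruits HSP70 to uncoat clathrin vesicles. It had 164 counts in SK-LMS-1 against 2 in SK-UT-1, 101-fold higher (27.4 to 839) in SK-LMS-1. GAK, the auxilin relative of other tissues and no member by symbol, stood at 64.1 CPM in SK-LMS-1 against 96.3 in SK-UT-1, 1.50-fold higher (1.33 to 1.70) in SK-UT-1. DNAJC22 had 89 and 16 counts, 6.83-fold higher (3.98 to 12.5) in SK-LMS-1, and DNAJC15 is described above. In SK-UT-1, DNAJC7, which has binding repeats for both HSP70 and HSP90, was 2.68-fold higher (2.41 to 2.98) at 71.6 and 192 CPM. DNAJC12, a cofactor for folding of aromatic amino acid hydroxylases, had 19 counts in SK-LMS-1 against 77 in SK-UT-1, 3.30-fold higher (1.98 to 5.77) in SK-UT-1. DNAJC5, the cysteine string protein of secretory vesicles, lay at the limit, 1.995-fold higher (1.77 to 2.24) in SK-LMS-1. DNAJC9, a chaperone of histones H3 and H4, was 1.58-fold higher (1.41 to 1.78) in SK-UT-1, and DNAJC13, a protein of endosomes, 1.43-fold higher (1.34 to 1.52) in SK-LMS-1.

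Genes that regulate or assist the chaperones were described as 5 lists. HSF1 stood at 45.6 CPM in SK-LMS-1 against 48.2 in SK-UT-1, 1.06-fold apart (0.906 to 1.23). HSF2 was 1.73-fold higher (1.53 to 1.96) in SK-UT-1 and HSBP1, which binds HSF1, 1.63-fold (1.39 to 1.92). All 5 genes of the heat shock factor list lay within 2-fold. All 14 HSP90 cofactors did so too, with a median log2 ratio of -0.21. FKBP4 at 1.90-fold (1.75 to 2.075) and STIP1, the adaptor between HSP70 and HSP90, at 1.75-fold (1.62 to 1.89) had the largest ratios towards SK-UT-1. The cytosolic chaperonin TRiC with prefoldin had 14 of 14 genes within 2-fold and a median of -0.30.

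Among 17 HSP70 cofactors and other J-domain proteins, 2 were past 2-fold towards SK-LMS-1 (background 21.9%) and 2 towards SK-UT-1 (background 18.3%). The other 13 lay between those limits, and the median log2 ratio of the list was -0.19. BAG3, the partner of HSPB8, was 2.34-fold higher (2.03 to 2.70) in SK-LMS-1 at 85.8 and 36.7 CPM. SIL1, the exchange factor of HSPA5, was 3.19-fold higher (2.45 to 4.19) in SK-LMS-1. ST13, which stabilizes the HSP70 complex with its client, was 2.05-fold higher (1.91 to 2.19) in SK-UT-1. The mitochondrial exchange factors GRPEL1 and GRPEL2, partners of HSPA9, were 1.92-fold (1.58 to 2.35) and 1.99-fold higher (1.74 to 2.28) in SK-UT-1.

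Of 18 genes for ER folding and the unfolded protein response, 2 were past 2-fold towards SK-LMS-1 (background 21.9%) and 1 towards SK-UT-1 (background 18.3%). The other 15 lay between those limits, and the median log2 ratio of the list was 0.31. ERN1, the stress sensor IRE1, was 3.39-fold higher (2.53 to 4.60) in SK-LMS-1 and SEL1L, a scaffold of ER-associated degradation, 3.24-fold (2.97 to 3.53). SERPINH1, the collagen chaperone HSP47, was 2.77-fold higher (2.52 to 3.04) in SK-UT-1 at 86.7 and 240 CPM.

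**Figure D4:**
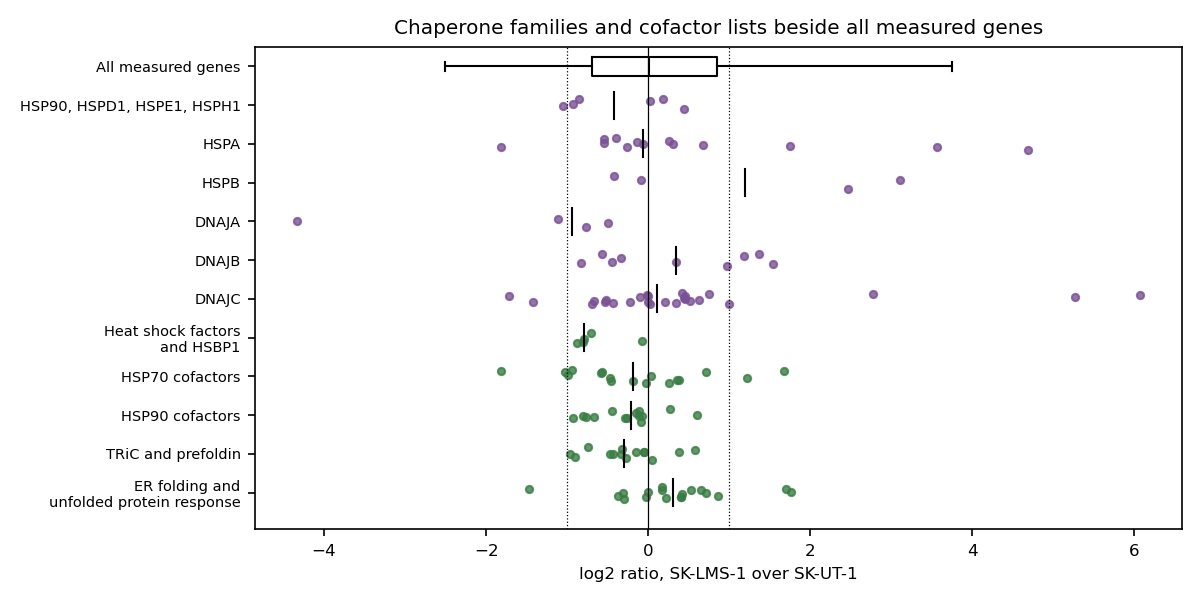
Log2 ratio of SK-LMS-1 over SK-UT-1 for members by family (purple) and for cofactor lists (green), 1 point per gene, with a black bar at each median; the box shows the quartiles of all 14324 measured genes and its whiskers the central 90%. The HSP90 cofactors and TRiC with prefoldin lie between the dotted 2-fold lines, and the points beyond them in the families are the 17 members named in the text.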

How the data were processed

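Total RNA of 2 cell lines under DMSO, 1 library each, was sequenced with a stranded SMARTer kit, per the labels' protocols. The deposited values are unnormalized gene counts. Per the file headers, the authors ran featureCounts 2.0.1 with a UCSC annotation of hg38. Fragments over exons were counted by gene name with strand setting 1, and a fragment over several genes counted for each. For the aligner, the sources used here give no name. The table's other column used here is exon length, per the file headers. It also holds 2 columns of counts that match neither sample and were not used.

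Counts were scaled by TMM in edgeR 4.0.16 (R 4.3.3; factors 0.949 and 1.05, SK-UT-1 being the second), and alternatively by library totals, upper quartile or DESeq2 1.42.0 size factors. Ratios have exact 95% conditional binomial (Clopper-Pearson) intervals (SciPy 1.17.1), and shares have the binomial ones. Both, like the floors, cover only counting error; amplified fragments without molecular identifiers are not independent. Counts below 3 were raised to 3 for the 2-fold rule and the medians. CPM per kb used exon length on the primary chromosome. With 1 library per line no test was made. The computation was tested on simulated counts.

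Members, lists and rules were chosen with earlier results of these data known. Named were all members past 2-fold, the 3 highest of each family per kb, the stress-inducible, ER and mitochondrial lists, members not measured, and cofactors past 2-fold at 5 CPM or more, up to 2 per direction. Other genes were named after their values were seen, among them GAK, FKBP4, STIP1 and GRPEL2. HSPB5 of the inducible list had no row under that symbol. Promoters are RefSeq's, build GRCh38.p14, matched by symbol. Single genes of the marker and cofactor lists that are not named are not reported here.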

Additional observations from a re-analysis of the deposited data

How the results depend on the processing

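With 1 library per line, no replicate could be left out, and the values compare these libraries. No paired analysis was possible because each line has 1 library. Under the other scalings and the thinning run, no 2-fold call of a member was lost or reversed. The filters and the lower floor could not lose or reverse a call. A filter leaves the ratio of a kept member unchanged, and the lower floor can only enlarge a ratio past 2-fold. Calls were gained for HSP90AA1 and HSPE1 with library totals, for HSPE1 with the upper quartile, and for DNAJB9 with the deeper library thinned. The number of members past 2-fold towards SK-LMS-1, 11 as reported, was 5 where 10 counts were required in both libraries, 4 at 20 CPM or more (chosen after seeing the data) and 7 under a 4-fold rule. The number for SK-UT-1, 6 as reported, was 3 at 20 CPM or more, 1 under a 4-fold rule and 3 where entire intervals beyond 2-fold were required. These alternatives test fewer genes or ask for more by construction. The members' median log2 ratio of -0.0012 turned to 0.0089 with no filter beyond 1 count, which takes in 66 members in place of 62. The share of all measured genes past 2-fold, 40.2%, was 41.1% with library totals, 41.0% with the upper quartile, 32.9% with no filter, 34.3% at 5 CPM, 29.9% at 20 CPM, 27.5% with 10 counts in both libraries, 18.7% at 4-fold and 25.2% for whole intervals. Depth limits the members under 10 counts in 1 library, among them HSPA1A, HSPA1B, HSPA1L, HSPA6, HSPB6, DNAJA4, DNAJC6 and DNAJC15.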
